A study of Mus musculus with 2 samples.

Results

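TALE homeobox genes of the MEIS, PBX, PREP and TGIF families were described in the E11.5 mouse midbrain. The 9 genes were Meis1, Meis2, Meis3, Pbx2, Pbx3, Pbx4, Pknox1, Pknox2 and Tgif1, found by looking up their symbols for the gene identifiers of the tables, 9 of 43346 genes in all. Other genes of these families are not analysed here. The data were 2 total RNA-seq libraries of the midbrain of B6NCrl embryos of mixed sex at embryonic day 11.5, both untreated as far as the labels say. Replicate 1 was made from a pool of 109 embryos and replicate 2 from a pool of 88 embryos, and the labels call them biological replicates of 1 group. The design holds no second condition, so the comparisons are between genes, between transcripts of a gene and between the libraries.

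TALE homeodomain proteins carry an extended loop of 3 amino acids in the homeodomain, the part of the protein that binds DNA. PBX proteins pair with MEIS or PREP proteins, which helps carry PBX into the nucleus, and such pairs join HOX and other homeodomain proteins on DNA. TGIF1 lacks the part that binds PBX and is known as a repressor that joins SMAD proteins and nuclear receptor sites. In the chick, Meis2 protein joins Otx2 in the midbrain roof, the tectum, while HOX genes are normally silent in the midbrain.

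A part of the coding sequence of the DNA-contacting helix of the homeodomain is shown for each gene because it separates the PBX genes from the rest. The sequences were read from the GENCODE M21 transcripts (GRCm38, the mm10 assembly), 27 bases each, 5′ to 3′ on the coding strand. Capitals mark the codon of homeodomain position 50.
Meis1: aattggtttATTaatgcccggagaaga
Meis2: aactggtttATCaatgccagaagaaga
Meis3: aactggtttATTaatgcccggagacga
Pknox1: aactggttcATCaacgcgagaagacga
Pknox2: aactggttcATCaatgccaggaggcgc
Tgif1: aactggttcATCaacgcccgccgcagg
Pbx2: aactggttcGGTaacaagcgaattcgc
Pbx3: aactggtttGGCaacaaacgaatcagg
Pbx4: aactggtttGGCaacaaaagaatccgg
Position 50 was an isoleucine codon, ATT or ATC, in the MEIS, PREP and TGIF genes and a glycine codon, GGT or GGC, in the PBX genes. The 27 bases lie in 1 exon in Pbx2 (chr17:34594807-34594833, plus strand), Pbx3 (chr2:34178310-34178336, minus strand), Pbx4 (chr8:69870035-69870061, plus strand) and Tgif1 (chr17:70845240-70845266, minus strand). In the MEIS and PREP genes an intron splits them into 2 exon blocks. Those of Meis1 are at chr11:18905689-18905693 and chr11:18885630-18885651 and those of Meis2 at chr2:115921672-115921676 and chr2:115868782-115868803, both on the minus strand. Meis3 has chr7:16183863-16183867 and chr7:16184038-16184059 on the plus strand, and Pknox1 has chr17:31602858-31602862 and chr17:31603187-31603208, also on the plus strand. Pknox2 has chr9:36895311-36895315 and chr9:36894477-36894498 on the minus strand. Over the 189 bases of the whole homeobox, the 7 pairs of genes within a family shared 78.3 to 84.7% of bases (median 82.0%), against 44.4 to 71.4% (median 51.9%) in the 29 pairs between families. The highest value between families was that of Meis2 and Pknox2.

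All 9 genes were detected, here meaning at least 1 TPM (TPM is a level scaled for transcript length and library depth) in both libraries, as were 32.1% of all genes. Their mean levels lay between 14.4 and 58.3 TPM, with a median of 30.5 TPM beside 16.4 TPM over the 13895 detected genes. Among detected genes the members stood between the 44.8 and the 80.8 percentile in the libraries. The tissue is a mixture of cells, so a low level from few cells of a type and one from little RNA per cell cannot be told apart. Mean ± SD values below are over the 2 libraries (n = 2), and each interval is the one deposited for that library, at a confidence level that the labels and headers do not state.

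**Figure D1:**
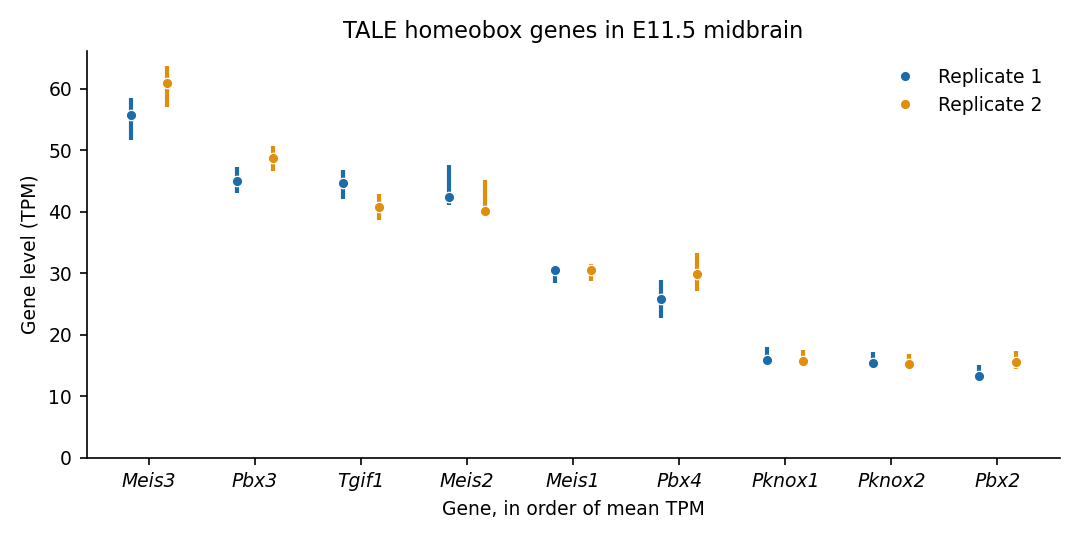
Gene level (TPM, linear axis from 0) of the 9 TALE genes in replicate 1 (blue, left) and replicate 2 (orange, right), with bars for the deposited interval of each library. Meis3 stands highest at 55.7 and 60.9 TPM, and Pknox1, Pknox2 and Pbx2 lie together between 13.3 and 16.0 TPM.

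The MEIS genes encode the cofactors that bind both PBX proteins and DNA, and together they summed to 129 TPM in replicate 1 and 131 TPM in replicate 2. Meis3, known in Xenopus for hindbrain patterning, was the highest of the 9 genes, at 55.7 TPM (interval 51.6 to 58.5) in replicate 1 and 60.9 TPM (57.1 to 63.6) in replicate 2, a mean of 58.3 ± 3.67 TPM. Meis2, the partner of Otx2 in the chick tectum, had 42.4 TPM (41.1 to 47.6) in replicate 1 and 40.1 TPM (39.7 to 45.1) in replicate 2. Meis1, known for its part in eye and blood development, had 30.5 TPM (28.5 to 31.4) in replicate 1 and 30.5 TPM (28.7 to 31.5) in replicate 2. The order Meis3, Meis2, Meis1 was the same in both libraries, with no overlap of intervals within either. Meis3 was 1.31-fold and 1.52-fold above Meis2 in replicates 1 and 2, on TPM with 0.1 added. It was 1.82-fold and 1.99-fold above Meis1. Meis2 was 1.39-fold and 1.31-fold above Meis1. By estimated reads the order was another: Meis2 had 3268 and 3956 expected counts, above Meis3 with 2180 and 2867, and Meis1, with 2280 and 2682, was above Meis3 in replicate 1 and below it in replicate 2. The effective length used for the TPM was 2882 and 3082 bases for Meis2 but 1463 and 1471 bases for Meis3, so Meis3 leads only per length.

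The PBX genes encode the partners of MEIS and PREP proteins, and the 3 analysed here summed to 84.1 TPM in replicate 1 and 94.4 TPM in replicate 2. Pbx3, which in the mouse is needed for the brainstem control of breathing, had 45.0 TPM (interval 43.1 to 47.2) in replicate 1 and 48.8 TPM (46.6 to 50.6) in replicate 2. Pbx4, described in the mouse mainly from the testis, had 25.8 TPM (22.8 to 28.8) in replicate 1 and 30.0 TPM (27.2 to 33.3) in replicate 2. Pbx2, whose loss leaves mice viable, had 13.3 TPM (12.5 to 15.02) in replicate 1 and 15.6 TPM (14.4 to 17.4) in replicate 2. The order Pbx3, Pbx4, Pbx2 was the same in both libraries and no 2 of these intervals overlapped within a library. Pbx3 was 3.38-fold and 3.11-fold above Pbx2 and 1.75-fold and 1.63-fold above Pbx4. Pbx4 was 1.94-fold and 1.91-fold above Pbx2 by TPM. By CPM, the count scaled to the gene total but not to length, Pbx4 was the lowest of the 9, at 10.8 in replicate 1 and 12.6 in replicate 2, and Pbx2, next to it, had 26.1 and 27.6. The place of Pbx4 by TPM rests on an effective length of 609 and 601 bases, set by short transcripts described further on.

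The PREP genes encode the other partners of PBX proteins. Pknox1, also called Prep1 and needed for early mouse development, had 16.0 TPM (interval 15.1 to 18.1) in replicate 1 and 15.7 TPM (14.95 to 17.5) in replicate 2. Pknox2, or Prep2, had 15.4 TPM (14.9 to 17.2) in replicate 1 and 15.2 TPM (14.7 to 16.8) in replicate 2. Their intervals overlapped in both libraries, with Pknox1 1.04-fold and 1.03-fold above Pknox2, so they were not separated. Tgif1, mutated in some human holoprosencephaly, a failure of the forebrain to divide, had 44.6 TPM (42.03 to 46.9) in replicate 1 and 40.8 TPM (38.6 to 43.0) in replicate 2.

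From the highest mean to the lowest, the order was Meis3, Pbx3, Tgif1, Meis2, Meis1, Pbx4, Pknox1, Pknox2 and Pbx2. Of the 36 pairs of members, 29 had separate intervals with the same gene higher in both libraries, and of all pairs of detected genes 88.8% did, so separate intervals are the rule at this depth and not a result about the members. Among the 8 neighbours in the order, 3 were separated, namely Meis3 above Pbx3, Meis2 above Meis1 and Pbx4 above Pknox1. The neighbours Tgif1 and Meis2, Meis1 and Pbx4, Pknox1 and Pknox2, and Pknox2 and Pbx2 overlapped in both libraries. Pbx3 was separated from Tgif1 and from Meis2 in replicate 2 alone, and Pknox1 from Pbx2 in replicate 1 alone. With 2 libraries an exact sign-flip test cannot give a p below 0.5, so no p is given for these pairs.

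The genes differed in which transcripts carried their level. The tables held 92 transcripts of the 9 genes, and 91 were in the M21 annotation, 85 with the same length. Each was grouped by its annotated type and by whether its reading frame holds a whole homeobox. The share of a gene's TPM on coding transcripts with a whole homeobox was 96.0 and 96.1% for Pknox1, 98.2 and 89.7% for Pbx2, 94.8 and 92.8% for Pknox2, 90.3 and 87.2% for Pbx3, and 88.6 and 87.0% for Tgif1, in replicates 1 and 2. It was 79.3 and 83.8% for Meis2, 66.8 and 66.5% for Meis3, and 59.3 and 58.5% for Meis1. In Pbx4 it was 0.815 and 2.64%.

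**Figure D2:**
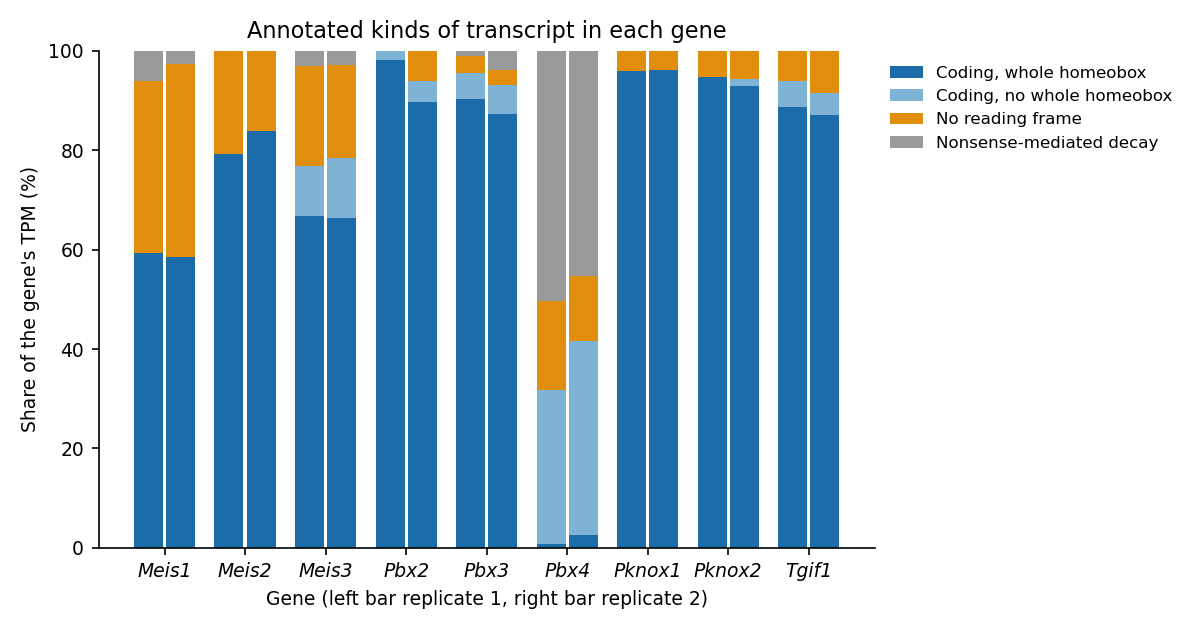
Share of each gene's TPM (%, stacked to 100) by annotated kind of transcript, left bar replicate 1 and right bar replicate 2. Coding transcripts with a whole homeobox fill most of every bar but those of Pbx4, where they are 0.815% and 2.64%.

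Counted on coding transcripts with a homeobox alone, the order of the genes changed at both ends. Pbx3 came first, at 40.7 TPM in replicate 1 and 42.6 TPM in replicate 2 (41.6 ± 1.34), before Meis3 at 37.2 and 40.5 TPM (38.8 ± 2.29), Tgif1 at 39.5 and 35.5 TPM (37.5 ± 2.87) and Meis2 at 33.6 and 33.6 TPM. The library values of Meis3 and Tgif1 overlapped, and both values of Pbx3 lay just above them. Meis1 followed with 18.1 and 17.9 TPM, then Pknox1 with 15.3 and 15.1 TPM, Pknox2 with 14.6 and 14.1 TPM and Pbx2 with 13.0 and 14.0 TPM. Pbx4 moved to the last place, at 0.21 and 0.79 TPM. The tables give no interval for such sums. The sums leave out Meis1-202, a decay transcript whose frame holds a homeobox, at 1.40 TPM in replicate 1 and 0.38 TPM in replicate 2. By family the sums came to 88.9 and 91.9 TPM for MEIS, 53.9 and 57.4 TPM for PBX, 29.9 and 29.2 TPM for PREP and 39.5 and 35.5 TPM for Tgif1.

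**Figure D3:**
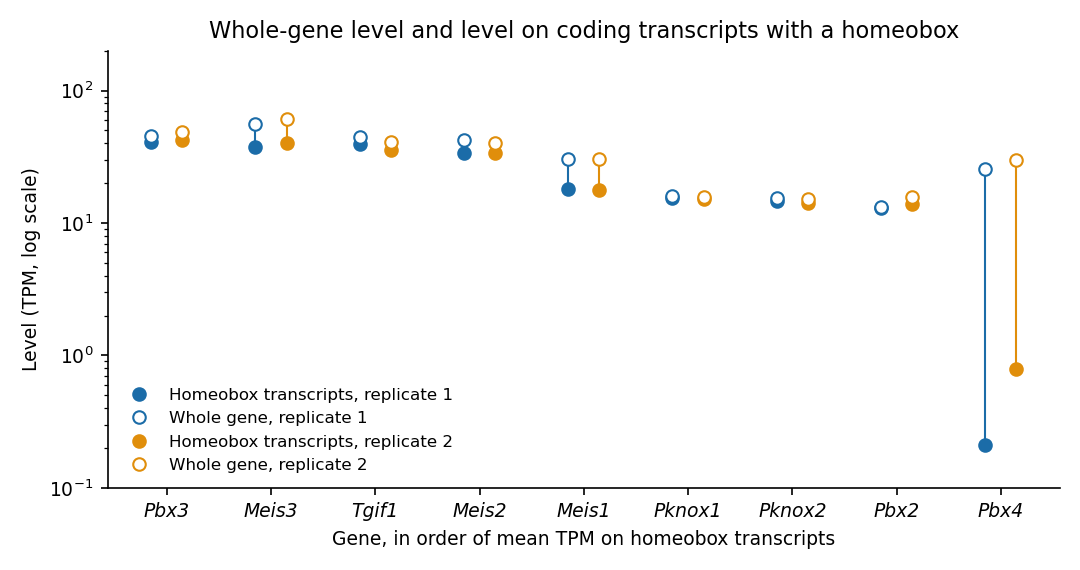
Level (TPM, log axis) of the whole gene (open circles) and of its coding transcripts with a homeobox (filled circles), replicate 1 in blue on the left and replicate 2 in orange on the right, joined by a line. The circles nearly meet in Pknox1, Pknox2 and Pbx2 and lie far apart in Pbx4, at 25.8 and 0.21 TPM in replicate 1 and 30.0 and 0.79 TPM in replicate 2.

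Pbx4 (chr8:69832491-69872292, plus strand) thus had most of its level on transcripts whose annotated reading frames hold no homeobox. The leading transcript by share of TPM, Pbx4-202, is 375 bases long, incomplete at an end, with 108 codons and no homeobox. It held 30.9% of the gene in replicate 1 and 39.0% in replicate 2. Pbx4-205 and Pbx4-204, annotated as targets of nonsense-mediated decay, a pathway that degrades transcripts with an early stop, held 26.8 and 26.7% and 14.8 and 11.9%. All 3 such decay transcripts of the gene together held 50.3 and 45.3%, and the retained intron Pbx4-206 held 11.3 and 10.4%. The intervals of Pbx4-202 and Pbx4-205 overlapped in both libraries. By expected counts Pbx4-205 stood first of these, with 154 and 213, above Pbx4-202 with 58.8 and 103. The 3 decay transcripts held 68.6 and 62.5% of the counts of Pbx4, against 14.0 and 17.9% for Pbx4-202. The single full-length transcript, Pbx4-201, with 378 codons, had 0.21 TPM (interval 0.0384 to 0.557) in replicate 1 and 0.79 TPM (0.385 to 1.14) in replicate 2. By expected counts it held 1.95% of the gene in replicate 1, with 8.17 counts, and 6.44% in replicate 2, with 37.2 counts. Over the 12496 detected coding genes, the median share on coding transcripts with both ends complete was 96.8%, and 98 genes, 0.784%, had a lower share than Pbx4. This comparison uses M21 types for transcripts quantified with annotation M4.

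The other PBX genes had a clear leading transcript. Pbx2-201, with 430 codons, held 91.8% of Pbx2 (chr17:34591266-34597400, plus strand) in replicate 1 and 72.6% in replicate 2. The shorter Pbx2-203, with 348 codons, held 6.40% in replicate 1, at 0.85 TPM (interval 0.0016 to 1.86), and 17.2% in replicate 2, at 2.68 TPM (1.16 to 3.94), and these intervals overlapped. In Pbx3 (chr2:34171457-34373142, minus strand) the shorter reading frame of 351 codons, Pbx3-202, held 58.9 and 60.6% and the longer one of 434 codons, Pbx3-201, 31.4 and 26.6%. Their levels did not overlap in either library: Pbx3-202 had 26.5 TPM (23.9 to 27.9) in replicate 1 and 29.6 TPM (27.0 to 31.0) in replicate 2, against 14.1 TPM (11.5 to 15.7) and 13.0 TPM (10.7 to 14.8) for Pbx3-201. Both hold the same homeobox.

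The MEIS genes had the largest part without a reading frame or with a partial one, apart from Pbx4. In Meis1 (chr11:18879817-19018985, minus strand) Meis1-201, with 390 codons, held 52.8 and 52.6%, and Meis1-203, a spliced transcript with no annotated reading frame, held 25.6 and 30.4%. The longer Meis1 frame of 465 codons held 4.65 and 3.72%, beside 54.6 and 54.7% on the 3 frames of 370 to 390 codons. Meis2 (chr2:115863064-116065839, minus strand) had no such lead. Its 2 longer frames of 470 and 477 codons held 42.5% in replicate 1 and 43.8% in replicate 2, and its 4 shorter ones of 393 to 401 codons held 36.7% and 40.0%. In Meis3 (chr7:16175090-16186504, plus strand) Meis3-201, with 378 codons, held 50.7 and 52.2%, Meis3-205, with 361 codons, 16.2 and 14.3%, and the retained intron Meis3-202 13.0 and 14.3%.

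The split inside Meis2 was poorly fixed by the reads. Meis2-201 had 10.3 TPM (interval 1.93 to 12.3) in replicate 1 and 13.4 TPM (3.66 to 15.1) in replicate 2. Meis2-203 had 7.70 TPM (4.58 to 15.4) in replicate 1 and 4.17 TPM (1.32 to 13.0) in replicate 2, and Meis2-206 had 8.98 TPM (1.17 to 10.1) and 7.47 TPM (0.22 to 8.35). These intervals overlap one another in each library, so no order among these transcripts is given. By the posterior mean, the other deposited estimate, the leading transcript of Meis2 was Meis2-203 in replicate 1 and Meis2-201 in replicate 2. The sum of the 2 longer frames was steadier, at 42.5 and 43.8%, or 39.2 and 40.1% by the posterior mean. The retained intron Meis2-213 had narrow intervals that did not overlap between the libraries, with 3.12 TPM (2.76 to 3.36) in replicate 1 and 3.78 TPM (3.42 to 4.01) in replicate 2. It was 1 of the 39 member transcripts at 1 TPM or more in both libraries, and over all such transcripts 13.1% did not overlap.

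In the PREP genes all transcripts with a homeobox had reading frames of the same length. All 3 Pknox1 transcripts with a homeobox (chr17:31564734-31607693, plus strand) encode 436 codons, and Pknox1-201 held 82.6 and 87.4% of the gene. The 3 of Pknox2 (chr9:36890982-37147407, minus strand) encode 474 codons, with 60.0 and 53.5% on Pknox2-201 and 34.8 and 39.0% on Pknox2-202.

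Tgif1 (chr17:70844205-70853546, minus strand) has several first exons, and its leading transcript differed between the libraries. Tgif1-202 led in replicate 1, with 40.1% of the gene at 17.9 TPM (interval 12.7 to 20.8), and had 29.1% at 11.9 TPM (8.81 to 15.7) in replicate 2. Tgif1-201 led in replicate 2, with 33.7% at 13.8 TPM (11.0 to 15.6), and had 31.5% at 14.1 TPM (10.7 to 16.4) in replicate 1. The intervals of the 2 transcripts overlapped within each library, so which of them leads is not settled. Those of each transcript also overlapped between the libraries, though each estimate of Tgif1-202 lay outside the interval of the other library. The cause of the exchange was not tested. Tgif1-210 followed, with 12.2 and 18.1%. The other 8 genes kept their leading transcript, and of all detected genes with at least 2 transcripts 91.4% did. The frames of Tgif1-202 and Tgif1-210 have 252 codons and that of Tgif1-201 has 272 codons.

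**Figure D4:**
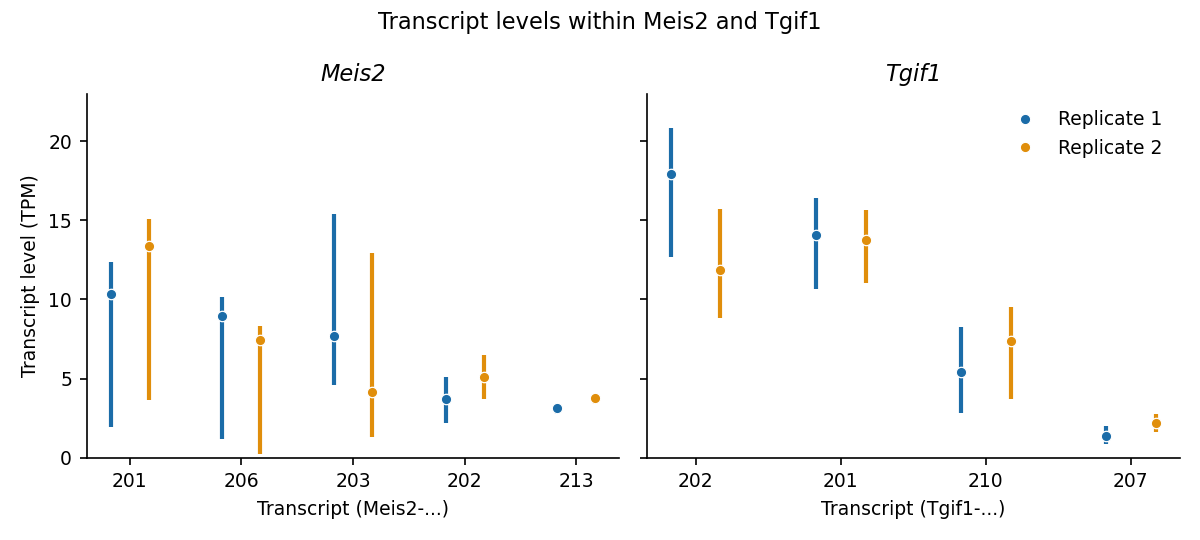
Level (TPM, linear axis from 0) of the Meis2 and Tgif1 transcripts with the highest mean shares, replicate 1 in blue on the left and replicate 2 in orange on the right, with bars for the deposited intervals. The intervals of Meis2-201, Meis2-203 and Meis2-206 cover most of the range from near 0 to 15 TPM, while those of Tgif1-201 stay between 10.7 and 16.4 TPM.

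The 2 start sites with the largest mean shares of Tgif1 are shown because they belong to the transcripts that led in one library each. The start shared by Tgif1-210 and 3 other transcripts held 15.7% of the gene in replicate 1 and 21.7% in replicate 2. Each run holds 250 bases before and 20 from the RefSeq start on (GRCm38.p6, minus strand, 5′ to 3′), and capitals mark TGACAG, the core letters bound by MEIS and PREP proteins.
Start of Tgif1-202, chr17:70853513-70853782: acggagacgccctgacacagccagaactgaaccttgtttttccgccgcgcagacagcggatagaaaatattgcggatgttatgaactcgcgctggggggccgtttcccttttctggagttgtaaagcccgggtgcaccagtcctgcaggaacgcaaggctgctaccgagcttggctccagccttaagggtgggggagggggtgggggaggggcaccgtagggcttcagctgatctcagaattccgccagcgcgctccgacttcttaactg
Start of Tgif1-201, chr17:70851191-70851460: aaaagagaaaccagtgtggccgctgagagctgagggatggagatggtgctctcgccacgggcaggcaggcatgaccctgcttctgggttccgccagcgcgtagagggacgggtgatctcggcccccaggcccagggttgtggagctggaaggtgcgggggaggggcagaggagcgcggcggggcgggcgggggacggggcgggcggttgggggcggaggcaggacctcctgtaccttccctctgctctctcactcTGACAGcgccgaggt
The run at the start of Tgif1-201 holds TGACAG from 5 to 10 bases after the RefSeq start, and the run of Tgif1-202 holds none. These RefSeq starts, chr17:70851210 and chr17:70853532, differ from the M21 first bases of the transcripts, chr17:70851207 for Tgif1-201 and chr17:70853546 for Tgif1-202. Transcripts were assigned to a RefSeq start within 50 bases of their first base. Promoter windows of 300 bases were found for 6 of the 9 genes, 10 windows in all, and searched on both strands for TGACAG, TGATTGAC, TGATNNAT and TGATTGAT. Of all 32851 such windows 19.2% held TGACAG, 0.770% TGATTGAC, 8.85% TGATNNAT and 0.746% TGATTGAT. TGACAG was in 2 of the 10 member windows and TGATNNAT in 1, all of Tgif1, and the windows of Meis1, Meis2, Meis3, Pbx2 and Pbx4 held none of these letters. A match describes the letters and says nothing of binding.

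Between the libraries the log2 ratios of the members lay between -0.21 and 0.13. None of the 9 differed at 2-fold or more with an adjusted p under 0.05 by a two-sided exact binomial test on counts, against 2.94% of the 17148 genes tested. Without the 2-fold minimum 3 of the 9 passed the adjusted p, against 35.5% of genes. These were Meis3, with a log2 ratio of replicate 1 over replicate 2 of -0.15 and an adjusted p of 0.00173 by the exact binomial test, Pbx3 with -0.09 and 0.0279, and Tgif1 with 0.13 and 0.0313. Pbx4 had the largest ratio, a log2 ratio of -0.21, with a counting interval of -0.39 to -0.03 and an adjusted p of 0.064 by the same exact test. At an unadjusted p under 0.05 there were 4 of the 9 by the exact binomial test. All of the 35.5% of genes past the adjusted p meet this too, so the 4 are no result about the members. EdgeR's exact test was run with an assumed coefficient of variation of 0.1, above the 7.82% measured between the libraries. By it 0 of the 9 were called, and 0 at an unadjusted p under 0.05. The share of all genes called by this test was not counted, so these zeros are no result about the members. The deposited TPM intervals of the libraries did not overlap for 0 of the 9, against 22.4% of detected genes. With 9 genes, these counts beside the shares over all genes are no result about the members. The median absolute log2 ratio was 0.07 over the members and 0.14 over all genes tested. The tested genes reach down to a summed count of 20, while the member with the fewest counts, Pbx4, had 420 and 577. The medians are thus not of genes with like counts.

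**Figure D5:**
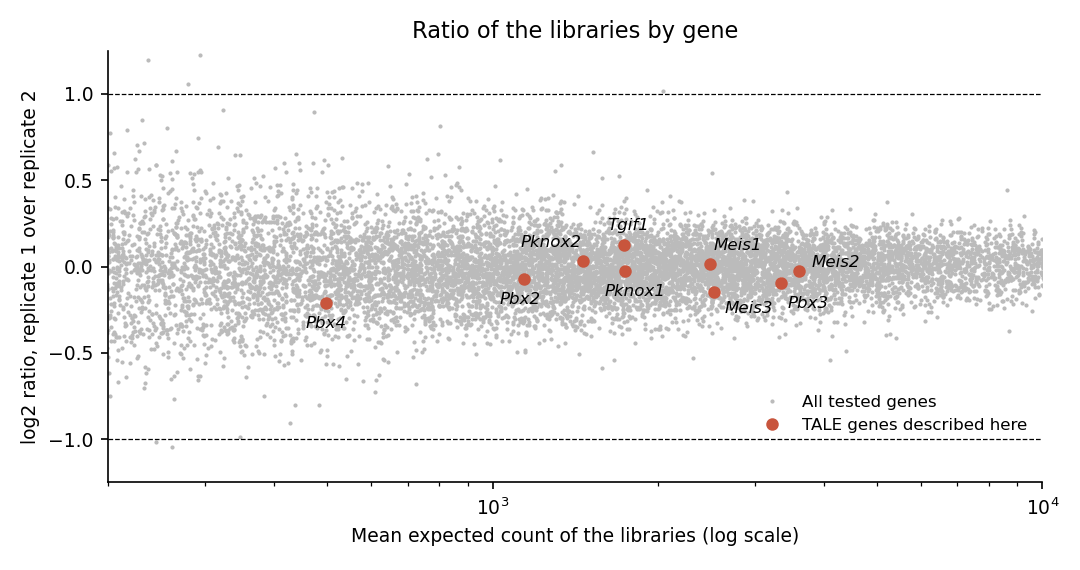
The log2 ratio of replicate 1 over replicate 2 against the mean expected count (log axis), for tested genes with a mean count between 200 and 10000 (grey) and the 9 members (red), with dashed lines at a 2-fold ratio. The members lie between -0.21 (Pbx4) and 0.13 (Tgif1), far inside the dashed lines.

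Of 7 other TALE genes, the IRX family and Mkx, 6 were detected, with a median of 5.66 TPM over the 7. Irx3 (33.8 ± 3.83 TPM), Irx5 (32.5 ± 1.68 TPM) and Irx2 (30.1 ± 0.297 TPM) stood near Meis1, and Irx4 was under 1 TPM, at 0.31 in replicate 1 and 0.67 in replicate 2. Of 11 DNA-binding partners 6 were detected. Otx2, the midbrain and forebrain homeobox gene, was highest at 169 and 171 TPM, above every member, before Pax6 (34.8 ± 0.141 TPM) and Pax3 (30.5 ± 1.65 TPM). The engrailed genes En1, at 4.94 and 6.29 TPM, and En2, at 1.80 and 2.21 TPM, were lower than every member. The 5 HOX genes among them were under 1 TPM in both libraries. Hoxb1 had 2 and 1 counts and Hoxb2 2 and 0 counts.

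All 12 listed genes for proteins that bind or regulate MEIS and PBX were detected, with a median of 37.5 TPM. Highest were the corepressor genes Hdac1 (176 ± 5.73 TPM) and Ncor1 (137 ± 3.44 TPM) and Xpo1 (135 ± 6.02 TPM), which exports PBX from the nucleus. Crbn, whose human product marks MEIS2 protein for degradation, had 48.8 and 46.5 TPM, close to Meis2 itself. Tle4, which in the chick competes with Meis2 for Otx2, had 26.6 and 28.1 TPM, and Pbxip1, whose product binds PBX, 5.60 and 6.26 TPM. All 8 listed partners of TGIF1 were detected, with a median of 74.2 TPM, the highest being Hdac2 (333 ± 8.53 TPM), Ctbp1 (327 ± 21.1 TPM) and Hdac1. Smad2 and Smad3 had 54.4 ± 3.46 and 12.8 ± 0.0636 TPM.

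Retinoic acid is a known inducer of MEIS genes, and 6 of the 11 listed genes of that pathway were detected, with a median of 2.14 TPM. The binding proteins Crabp1 (881 ± 21.4 TPM) and Crabp2 (413 ± 3.16 TPM) were highest, before the receptor Rarb (12.2 ± 0.297 TPM). The synthesis genes Aldh1a1, Aldh1a2 and Aldh1a3 were all under 1 TPM in both libraries, and of the degrading enzymes Cyp26b1 alone was detected, at 2.35 and 1.93 TPM. Cyp26c1 had 0 counts in both libraries, which allows up to 0.0772 CPM in replicate 1 and 0.0653 CPM in replicate 2, for 3 counts of the gene total. All 6 listed targets of MEIS or PBX in nervous tissue were detected, led by Dcx (83.5 ± 15.7 TPM), Pax6 and Foxp2 (33.7 ± 1.30 TPM). Epha8, a reported target of Meis2 in the mouse midbrain, had 3.13 and 3.82 TPM.

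The depth was 41760197 and 49256468 expected counts in replicates 1 and 2, with 38884247 and 45975100 of them on genes. Over 14043 genes the libraries varied with a coefficient of variation of 7.82%. By the exact binomial test 505 of 17148 genes differed at 2-fold or more with an adjusted p under 0.05. The 2 sets of values are thus not copies. That the libraries are separate pools rests on the labels, since the test takes counting noise alone into account. All 6 midbrain markers were detected, as were 6 of 6 progenitor and 5 of 5 neuron markers, while 2 of 5 hindbrain markers and 4 of 5 forebrain markers were. The median level was 4.05 TPM over the midbrain markers, 9.35 TPM over the forebrain and 0.165 TPM over the hindbrain markers. The counts detected thus do not rank the regions by level. Markers of mesenchyme (5 of 5, summed 601 and 563 TPM), endothelium (4 of 4, 73.8 and 71.1 TPM), red cells (4 of 4, 12895 and 12967 TPM) and microglia (4 of 4, 56.8 and 61.1 TPM) were also present. Of 3 neural crest and ganglion markers 1 was detected. MEIS and PBX genes are also used in mesenchyme, and the part of such cells in the members' levels was not tested. Among genes that overlap a member, the highest was Gpsm3 at 69.1 and 104 counts, on the strand of Pbx2, which had 1014 and 1268 counts, and for the other members no overlapping gene with a value passed 37.5 counts.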

How the data were processed

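Total RNA was measured in 2 midbrain libraries, 1 per biological replicate. Per the labels' protocols, extraction used mirVana reagents, input was 10 ng of RNA over 200 nt with ERCC spike-ins, and the cited method is Smart-seq. Its cDNA is amplified, so the intervals and limits cover at most the error of counting reads and of assigning them to transcripts. The notes deposited with the tables name assembly mm10 and annotation M4. The sources used here do not name the aligner or quantifier, the level of the intervals or the use of strand.

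Per the file headers, the authors deposited an expected count for every gene and every transcript, an estimate of reads that need not be whole. The deposited TPM and FPKM take every row into their scaling, and spike-ins took 15.2 and 14.8% of TPM. The deposited interval bounds were read as a signal with no fixed total. In the transcript tables a deposited percent gives the share of a gene held by a transcript. The tables list 43346 genes, and 97 spike-in and phiX rows (6.89 and 6.66% of counts) and 26248 numbered rows (4.44 and 13.25 counts) were left out of totals and tests.

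Symbols, coordinates (1-based) and transcript types came from GENCODE M21 by identifier without version (42462 genes matched). The members, lists and rules were chosen with earlier results of these data known. The text names all 9 members and their transcripts at 10% or more in both libraries or leading in either. It also names pairs in a family or next in order and the 3 highest genes of each pathway list. Marker lists are given by the count detected, with the summed or median TPM for some. A gene that these lists held is not reported here. Transcripts below that share, Hox genes and genes with a role tied to a member were added for the account of a member.

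Pairs were compared on TPM + 0.1 and called separated where the deposited intervals were apart in both libraries with the same gene higher. The libraries were compared with an exact binomial test (two-sided) of each gene on expected counts rounded to whole numbers, against TMM-scaled sizes, with Benjamini-Hochberg adjustment over genes whose counts sum to 20 or more and a prior count of 1 in ratios. No quasi-likelihood fit is possible with 1 library a side. The libraries are separate pools by the labels. In counts simulated for this comparison, under sampling noise only, 17165 genes were tested. All 100 genes with a 3-fold and all 100 with an 8-fold change were called, with 2 false calls. The changed genes were drawn from those with a summed count of at least 100, so recovery at lower counts was not tested. Spread between libraries, the exact test with an assumed variation and scaling used edgeR 4.0.16 and DESeq2 1.42.0 in R 4.3.3. Other steps ran in Python 3.11.15 with Biopython 1.88, scipy 1.17.1, numpy 2.4.6, matplotlib 3.10.9 and pandas 2.3.3. Alternatives were other TPM estimates, thresholds, pseudocounts, scalings, filters and leaving out each library.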

Additional observations from a re-analysis of the deposited data

How the results depend on the processing

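All 9 members stayed detected at 0.5 TPM, at 5 TPM, by the posterior mean and without either library. The median member level of 30.5 TPM became 30.0 TPM by the posterior mean and 35.9 TPM when TPM was rescaled over gene rows alone, and ranged from 30.49 to 30.53 TPM without a replicate. The median percentile of 65.6 became 70.9 by the posterior mean, by which 16751 genes and not 13895 reached 1 TPM, and 66.67 without replicate 1 and 66.67 without replicate 2. Separated pairs were 29 by FPKM intervals too and from 30 to 31 without a replicate. Of the 7 pairs in a family 4 reached 1.5-fold, under both other pseudocounts and the posterior mean as well, and 4 to 5 did without a replicate. The share of all pairs of detected genes that reach 1.5-fold was not counted, so this is no result about the members. The folds of Pbx3 over Pbx4 and of Pbx4 over Pbx2, both among the 4, depend on the short effective length of Pbx4. The count of members that differed between the libraries stayed 0 under DESeq2, total-count and spike-in scaling, where 502, 506 and 504 of all genes were called. It was 0 with no filter on low counts and with a summed count of at least 50, beside 750 and 228 of all genes. By the posterior mean count it was also 0, beside 456 of all genes. EdgeR's exact test gave 0 too, with the share of all genes not counted. With 9 genes, these zeros are no result about the members. With no 2-fold minimum it became 3, beside 35.5% of all genes tested. Under spike-in scaling the ratios of Meis1 and Pknox2, neither past the test, changed sign. With that scaling and no fold minimum, 4 members passed the adjusted p of the exact test, and Tgif1 did not (adjusted p = 0.271). The share of all genes past it there was not counted. The cause of these shifts was not tested. By the posterior mean 7 members and not 8 kept their leading transcript, since Meis2 also changed, and Meis2 stood above Tgif1. Without replicate 1, Pbx2 stood above Pknox2. No paired analysis was possible because there is 1 group. Depth limits transcripts with few counts, such as Pbx4-201 with 8.17 and 37.2.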
